A study of Homo sapiens with 4 samples.

Results

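The widest sites of SAF-A binding that recurred in every library were examined in RPE1 cells. A region belonged to this set when peaks of the 4 lists that shared at least 1 bp were merged on chromosomes 1 to 22 and each list had a peak of at least 1000 bp in the merged region. Regions within 5 kb of position 0 or of the outermost peak end of a chromosome were left out, which removed 44 regions, 1 at the start and 1 at the end of each of the 22 chromosomes. This left 213 wide regions of 236215 merged regions (0.0902%), and of 19822 regions called in all 4 libraries (1.07%), which are called shared regions here. Because peak width and recurrence chose the set, widths are given as a description and are not tested.

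SAF-A (scaffold attachment factor A, also named hnRNP U) is an abundant nuclear protein that binds both RNA and DNA and is known as a component of the nuclear scaffold. It has been studied for its part in holding RNA on interphase chromatin and for its release from chromosomes when cells divide. CUT&Tag directs a transposase to an antibody-bound protein, and the fragments it releases are sequenced and piled up. A wide peak is a longer stretch over which fragments pass the peak caller, and its summit is the base with the most fragments.

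RPE1 is an immortalised human retinal pigment epithelial cell line, and all libraries were labelled wild type and were made with an antibody against SAF-A. There were 2 libraries of asynchronous cells (replicates 3 and 4) and 2 of mitotic cells (replicates 3 and 4), and the question addressed is whether SAF-A occupancy differed between these states. The titles mark the latter as synchronised with an M, and the design text calls the cells mitotic. The labels describe neither the synchronisation nor separate cultures for the replicates. The p-values therefore rest on the spread between libraries of the same state, mostly pooled over regions, and that spread may be technical. The genome background, the smallest local background of a list and a stand-in for its depth, was 1.38 and 1.17 fragments for asynchronous cells against 1.17 and 1.79 for mitotic cells, so mitotic replicate 4 was the deepest. Chromosome positions are on the hs1 assembly, count from 1 and span the merged region. Genes and DNA sequence at the regions were not analysed here.

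Most of the 213 wide regions were not much wider than the limit. Widths were those of the widest peak of each library in the region. The median was 1238 bp in asynchronous replicate 3, 1184 bp in asynchronous replicate 4, 1213 bp in mitotic replicate 3 and 1313 bp in mitotic replicate 4. The smallest of the 4 widths was under 1.25 kb in 167 of the 213 regions, at least 1500 bp in 12 and at least 2000 bp in 3. In 194 regions each library had a single peak, so most of the regions were not chains of several peaks.

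The region with the largest smallest width was on chromosome 17 from 29458262 to 29460932, at 2542 and 2449 bp (asynchronous) against 2468 and 2671 bp (mitotic). Its summits held 110 and 85 fragments (asynchronous) against 65 and 126 (mitotic). The next was on chromosome 5 from 1234094 to 1236721, at 2350 and 2360 bp against 2384 and 2510 bp. In summit height it was the third, with 345 and 240 fragments (asynchronous) against 197 and 327 (mitotic). Widths of the 4 libraries were close to each other in both regions. The third by width, on chromosome 22 from 51154284 to 51158023, had widths of 2001 and 2742 bp against 2177 and 3550 bp. There the libraries differed by more than 1000 bp, and summits held 39 and 32 against 34 and 54 fragments. The remaining 5 of the 8 chosen by width lay on chromosomes 7, 17, 14, 20 and 3, with smallest widths of 1938, 1891, 1802, 1790 and 1632 bp in that order.

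Just inside the limit were chromosome 13 from 108520544 to 108522354 (smallest width 1002 bp), chromosome 17 from 17537796 to 17539133 (1002 bp) and chromosome 17 from 50890374 to 50891925 (1003 bp). Just outside were chromosome 1 from 53935032 to 53936937 (997 bp), chromosome 12 from 12745548 to 12746714 (996 bp) and chromosome 10 from 111802289 to 111803328 (993 bp). No gap in width separated the set from the regions below it.

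**Figure D1:**
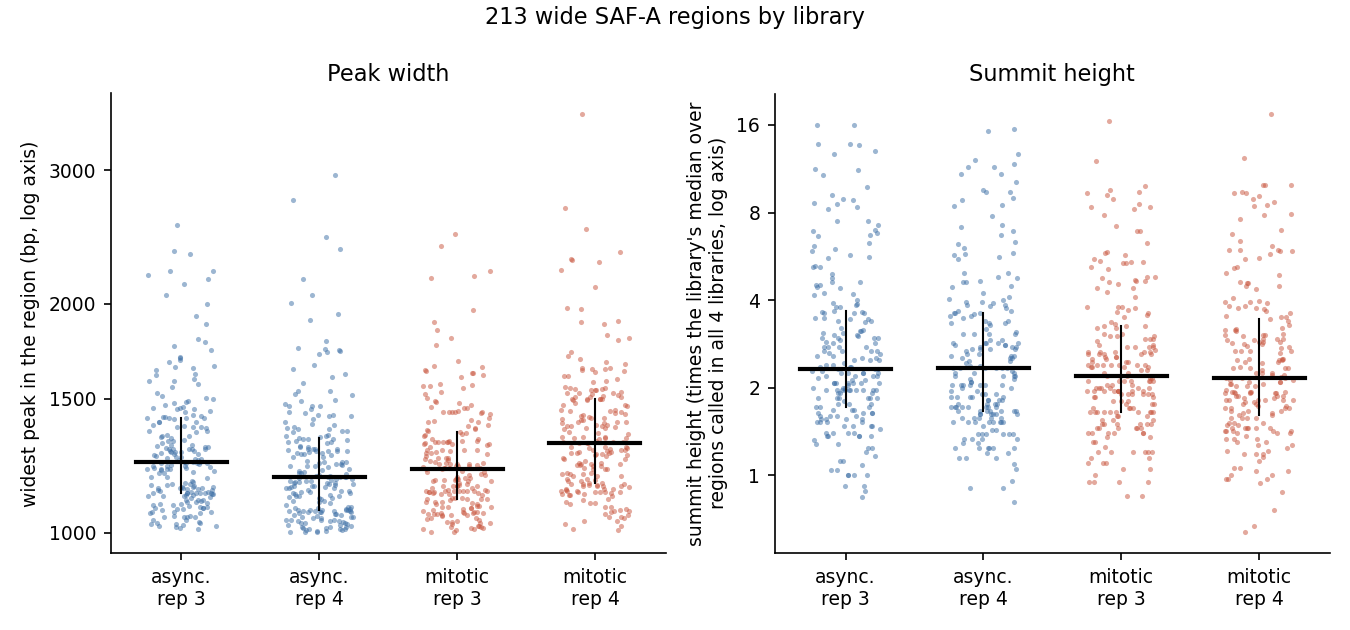
Width of the widest peak (left, bp) and summit height (right, times the library's median over shared regions) of the 213 wide regions, 1 point per region in each of the 4 libraries, on log axes. Thick bars are medians and thin bars run from the first to the last quartile; median widths lie between 1184 and 1313 bp, and median heights are 2.32 and 2.33 for asynchronous against 2.20 and 2.15 for mitotic cells.

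The 2 libraries with the higher genome background had more wide peaks than the other 2. The part of depth in these numbers was not tested. Peaks of at least 1000 bp on chromosomes 1 to 22 numbered 1297 and 744 (asynchronous) against 1004 and 2587 (mitotic). Asynchronous replicate 4 and mitotic replicate 3, with the same genome background of 1.17 fragments, thus had 744 and 1004. Away from chromosome ends, 3585 regions had such a peak in at least 1 library, and 2435 of these had one in exactly 1. In 649 regions exactly 2 libraries had one. These 2 were both mitotic libraries in 195 regions and both asynchronous libraries in 29, but they were asynchronous replicate 3 and mitotic replicate 4, the deepest pair, in 250 and the other pair across states, asynchronous replicate 4 and mitotic replicate 3, in 18. Of 288 regions wide in 3 libraries, asynchronous replicate 4 was the one without a wide peak in 135, mitotic replicate 3 in 91, asynchronous replicate 3 in 47 and mitotic replicate 4 in 15.

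Within the set, widths of the 2 cell states overlapped in 147 of 213 regions. Both mitotic peaks were wider than both asynchronous peaks in 44 regions, 20.7% of the set, against 24.5% of all shared regions. Both were narrower in 22 regions (10.3%), against 8.59% of all shared regions. The median width difference, mitotic minus asynchronous, was 0.02 log2 units over the wide regions and 0.15 over all shared regions. Without mitotic replicate 4 it was -0.03 over the wide regions, so its sign rested on that library. The mean of the library medians was 1211 ± 38.2 bp in asynchronous and 1263 ± 70.7 bp in mitotic cells (SD, n = 2), a difference smaller than the spread between the mitotic replicates. The choice of at least 1000 bp in every library limits how far widths in the set can differ.

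Among wide regions whose widths did not overlap, the largest ratio of mitotic to asynchronous mean width was on chromosome 9 from 82585096 to 82587377, at 1.57. Its peaks were 1466 and 1025 bp (asynchronous) against 1684 and 2215 bp (mitotic). Chromosome 12 from 30947869 to 30949633 followed, with 1226 and 1024 against 1765 and 1608 bp, and chromosome 14 from 100037541 to 100039414 at 1.41. On chromosome 14 the asynchronous widths of 1027 and 1041 bp were close and the mitotic ones were 1307 and 1610 bp. On chromosome 9 the replicates of each state were themselves far apart.

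The lowest ratio, 0.648, was on chromosome 14 from 99981119 to 99984243, with 2182 and 1741 bp (asynchronous) against 1365 and 1177 bp (mitotic). No base of this region lay in the widest peak of all 4 libraries. The ratio was 0.752 on chromosome 13 from 108520544 to 108522354, and 0.832 on chromosome 1 from 234719620 to 234721062. On chromosome 1 widths were 1291 and 1386 bp against 1180 and 1046 bp.

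The edges of the wide regions were placed alike in the 4 libraries. The stretch covered by the widest peak of all 4 had a median of 1078 bp and was at least 1000 bp in 179 of the 213 regions. It took up a median of 79.2% of the stretch covered by any of these 4 peaks, against 40.2% in the other shared regions. The left edges of the 4 peaks spanned a median of 146 bp and the right edges 128 bp, against 203 and 204 bp in the other shared regions. Since width in every library chose the set, these values are a description. In 2 wide regions the 4 peaks had no base in common, the one on chromosome 14 from 99981119 and one on chromosome 13 from 112692581 to 112696314.

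Wide regions were taller than most shared regions. Height is the number of fragments at the highest summit, recovered from the authors' fold and p of each peak. The median height in the wide regions was 58 and 49 fragments (asynchronous) against 44 and 71 (mitotic), against 25 and 21, and 20 and 33, in the other shared regions. Heights divided by the library's median over shared regions are called scaled heights. Averaged on a log scale over the 4 libraries, the scaled height had a median of 2.22 in wide regions and ranged from 0.836 to 16.2, and 115 of the 213 were among the tallest 10% of shared regions. Across the 213 regions, the smallest width and the scaled height had a Spearman correlation of 0.0747, and across all 19822 shared regions it was 0.539. The limit of 1000 bp narrows the range of widths in the set, so these correlations cannot be compared directly. Width and height of a region come from the same peaks and libraries, so the level of the heights is a description too.

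The local background under the summit, recovered from the same values, was also higher. It stood at a median of 5.70 ± 0.0191 times the genome background for asynchronous and 5.50 ± 0.227 times for mitotic libraries (SD, n = 2), against 2.68 ± 0.0147 and 2.66 ± 0.128 times in the other shared regions. These values were not matched for height. At scaled heights of 1 to 2, the median of the library medians was 4.13 times in wide and 3.39 times in other shared regions. At 2 to 4 it was 6.24 and 5.33 times, and at 4 to 8 it was 11.1 and 8.51 times. From 8 up it was 16.0 and 16.3 times, and below 1, with 5 wide regions, 2.855 and 1.92 times. The authors' fold of summit over local background had medians of 6.98 and 6.78 for asynchronous against 6.36 and 6.72 for mitotic cells. The number of other merged regions within 10 kb was a median of 2 around wide regions and 3 around other shared regions. Within 100 kb it was 38 and 37, so the wide regions were not set in denser surroundings by this count.

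The tallest wide region by mean rank was on chromosome 11 from 3905552 to 3907182, with 399 and 320 fragments (asynchronous) against 329 and 574 (mitotic). Its scaled height was 15.6 ± 0.510 for asynchronous and 16.9 ± 0.667 for mitotic cells (SD, n = 2). Both mitotic values were above both asynchronous ones, although by less than 10% on average. The second was on chromosome 8 from 11514416 to 11515928, with 400 and 325 against 241 and 406 fragments and scaled heights of 15.7 ± 0.370 and 12.2 ± 0.179 (SD, n = 2). There both mitotic values were the lower. The third, on chromosome 5 from 1234094, stood at 12.6 ± 1.68 and 9.88 ± 0.0418 (SD, n = 2).

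The fourth and the fifth were both on chromosome 1. From 144219681 to 144220767 summits held 341 and 240 fragments (asynchronous) against 188 and 301 (mitotic). From 143043924 to 143045117 they held 325 and 266 against 191 and 286 fragments. The sixth, on chromosome 1 from 205466941 to 205468254, had 343 and 246 against 187 and 293. All of these were lower in both mitotic libraries after scaling. The seventh, on chromosome 2 from 241853904 to 241855452, had 319 and 254 against 164 and 328 fragments. The eighth, on chromosome 12 from 53345447 to 53346751, had 270 and 227 against 178 and 329. In 7 of the 8 tallest, both mitotic libraries lay below both asynchronous libraries, and the exception was the region on chromosome 11. The share in all shared regions was 20.2%. At least 8 times the shared median it was 10 of 15 wide regions (66.7%) and 23 of 61 other shared regions (37.7%). From 4 to 8 times it was 60.7% of 28 wide and 46.9% of 277 other regions. Between 2 and 4 times it was 29.1% of 86 and 34.5% of 1822, and between 1 and 2 times 22.8% of 79 and 21.0% of 7500. Below the shared median it was 2 of 5 wide regions (40%) and 16.0% of 9949 others. The other regions include those at chromosome ends, and differences between these shares were not tested.

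**Figure D2:**
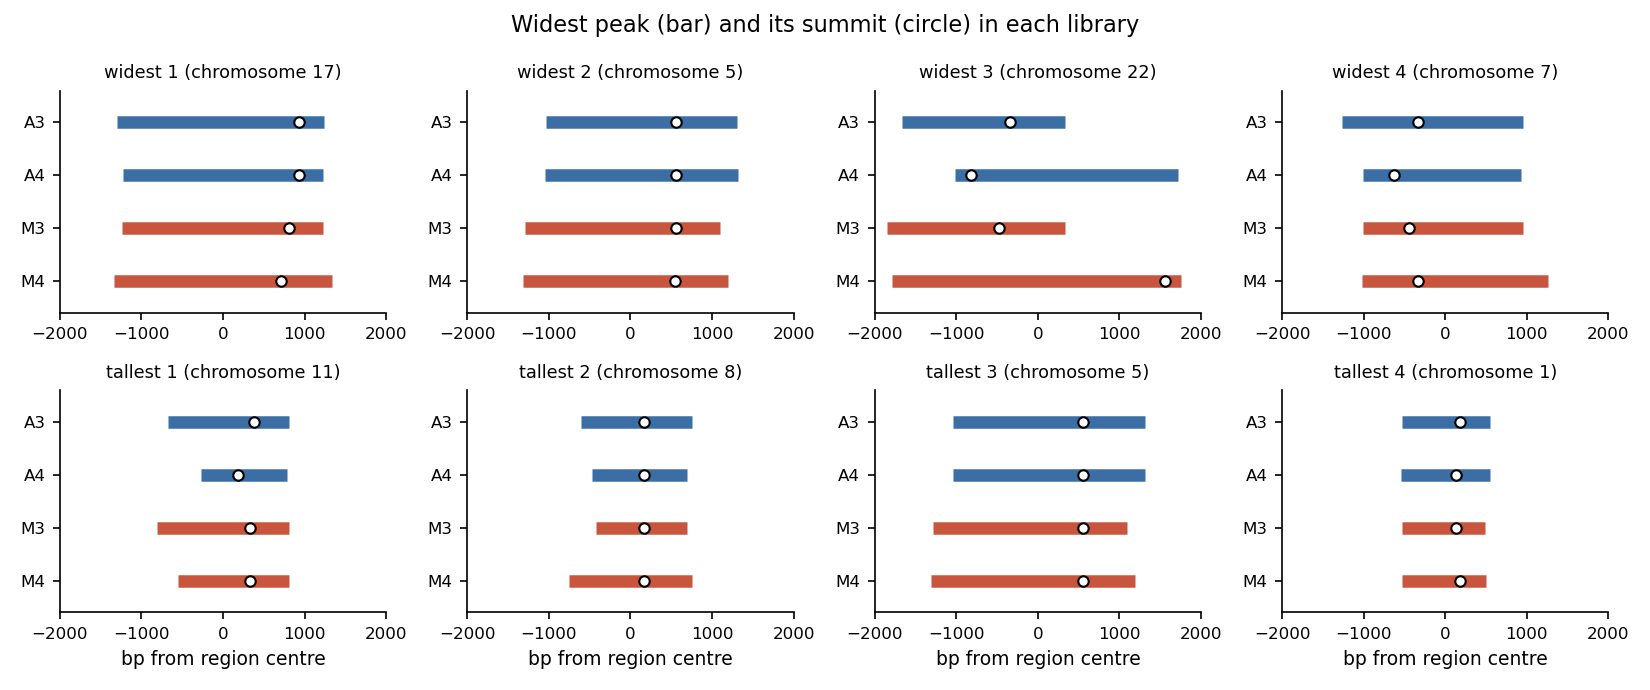
Widest peak (bar) and its summit (circle) in each library for the 4 wide regions with the largest smallest width (top) and the 4 tallest (bottom), in bp from the centre of the merged region; A3 and A4 are the asynchronous and M3 and M4 the mitotic replicates, and the region on chromosome 5 appears in both rows. Widths run from 2001 to 3550 bp in the region on chromosome 22 and from 1016 to 1087 bp in the one on chromosome 1.

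On scaled heights, no wide region passed the test for a difference between mitotic and asynchronous cells. Of the 213, 0 had an adjusted p under 0.05 by limma with Benjamini-Hochberg adjustment over all 19822 shared regions, against 13 of all shared regions (0.0656%). At an unadjusted p under 0.05 there were 27 wide regions, of which 25 were lower and 2 higher in mitotic cells. That is 11.7% and 0.939% of the set, against 4.86% and 4.08% of all shared regions. These counts depended on the trend of the prior with height: in the limma fit without that trend, 1 wide region was lower and 1 higher at an unadjusted p under 0.05 (0.469% each), against 3.43% and 4.27% of all shared regions. Each wide region was tested by this 1 tool.

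The heights nevertheless leaned one way without a single region being called. The scaled height averaged lower in mitotic cells in 146 of 213 wide regions (68.5%), against 52.5% of all shared regions. Both mitotic values lay below both asynchronous values in 72 wide regions (33.8%), against 20.2% of all shared regions, and above them in 22 (10.3%), against 17.1%. The median difference was -0.13 log2 units, a mitotic level of 0.915 of the asynchronous one, and over all shared regions it was -0.02. Library medians of the scaled height were 2.33 ± 0.00943 for asynchronous and 2.18 ± 0.0343 for mitotic cells (SD, n = 2). Against the genome background they were 42.0 ± 0.0359 and 38.6 ± 1.56 (SD, n = 2). The direction was the same on both scales. The local background, as given above, was a little lower in mitotic libraries on average, and its part in the height was not tested.

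The lean was larger in the taller wide regions. In the 43 wide regions at least 4 times the shared median, the median scaled height was 6.96 and 6.71 for asynchronous against 5.45 and 5.94 for mitotic cells, or 6.84 ± 0.174 against 5.69 ± 0.346 (SD, n = 2). Both mitotic libraries were below both asynchronous ones in 27 of these 43 and above in 4, and the median difference was -0.26 log2 units. In the other 170 wide regions both were below in 45 and above in 18, and the median difference was -0.10. Across the 213 regions, scaled height and height difference had a Spearman correlation of -0.257, with both values taken from the same 4 libraries. The height class was set on the mean over all 4 libraries.

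Shared regions outside the set leaned the same way when they were tall. In the 338 other shared regions at least 4 times the shared median, which include those at chromosome ends, the median difference was -0.15 log2 units. Both mitotic libraries were below in 153 of them and above in 28. Their median scaled heights were 5.72 ± 0.0801 for asynchronous and 5.13 ± 0.115 for mitotic cells (SD, n = 2). Between 2 and 4 times the shared median, the difference was -0.12 in 86 wide regions and -0.11 in 1822 others. From 4 to 8 times it was -0.26 in 28 wide regions and -0.15 in 277 others, and from 8 times up it was -0.35 in 15 and -0.07 in 61. Whether wide regions differed from other regions of the same height was not tested.

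**Figure D3:**
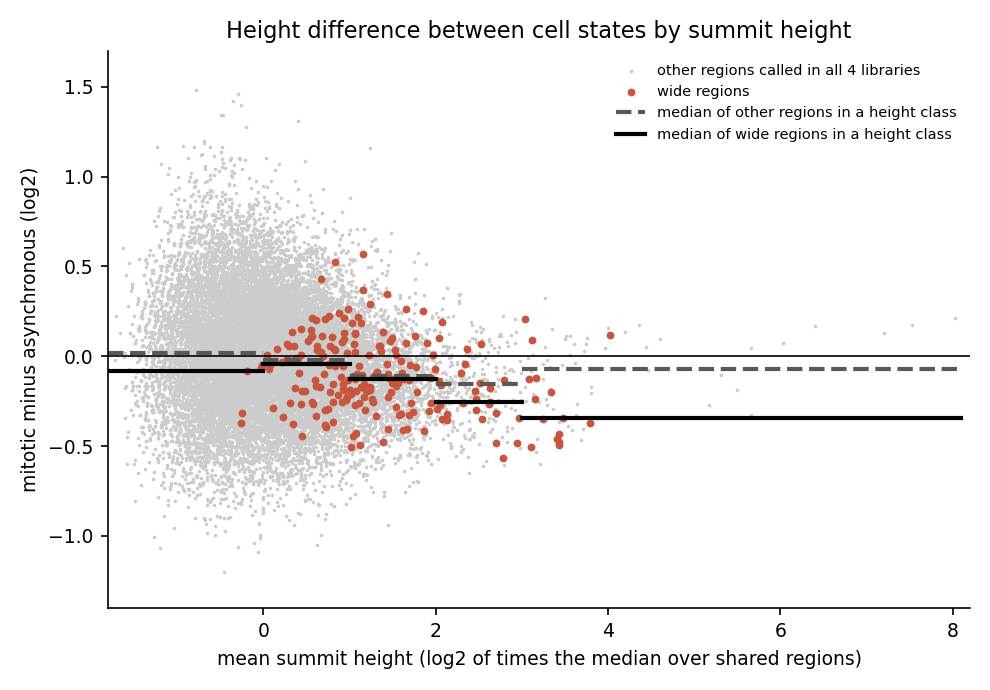
Mitotic minus asynchronous summit height (log2) against mean summit height (log2 of times the median over shared regions) for the 213 wide regions (red) and the other 19609 shared regions (grey). Lines are medians within height classes, solid for wide and dashed for other regions. In wide regions they fall from -0.04 between 1 and 2 times the shared median to -0.35 from 8 times up. The line of the 5 wide regions below the shared median is at -0.08.

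The 4 wide regions with the smallest p were all lower in mitotic cells, and none passed the adjustment. On chromosome 1 from 6491014 to 6492171 summits held 223 and 164 fragments (asynchronous) against 108 and 194 (mitotic). The scaled height was 8.36 ± 0.785 and 5.64 ± 0.339 (SD, n = 2), a difference of -0.57 log2 units (SE 0.15, limma adjusted p = 0.102). The groups did not overlap in this region. On chromosome 1 from 143043924 the scaled height was 12.8 ± 0.236 and 9.11 ± 0.625 (SD, n = 2), a difference of -0.50 (SE 0.14, limma adjusted p = 0.126).

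Chromosome 9 from 125037968 to 125039341 had 280 and 198 against 138 and 251 fragments, a difference of -0.50 (SE 0.15, limma adjusted p = 0.144). Chromosome 1 from 205466941 differed by -0.48 (SE 0.14, limma adjusted p = 0.152). In each of these 4 regions both mitotic libraries were below both asynchronous libraries. The regions were chosen by p from these same values, so this adds no support. The 2 wide regions higher in mitotic cells at an unadjusted p under 0.05, named after their values were seen, were on chromosome 5 from 14840174 to 14841631 and chromosome 4 from 162160673 to 162161965. The former had 50 and 35 fragments (asynchronous) against 51 and 95 (mitotic), and the latter 41 and 28 against 42 and 71. After scaling, both mitotic libraries lay above both asynchronous libraries in each of them.

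Scaling removes any change that all shared regions have in common. The files list a peak on a contig named as the spike-in, with a summit of 39953 and 28009 fragments (asynchronous) against 65379 and 114250 (mitotic). Per 1000 fragments at that summit, the median height of wide regions was 1.60 ± 0.211 for asynchronous and 0.647 ± 0.0365 for mitotic cells (SD, n = 2). The other shared regions were lower in mitotic cells too, at 0.688 ± 0.0877 and 0.297 ± 0.0121 (SD, n = 2). On that scale the median difference over wide regions was -1.33 log2 units. All 213 had a limma adjusted p under 0.05 there, as did 95.2% of all shared regions, and all 213 were lower in mitotic cells there, those named as higher after scaling to shared regions included. This scale multiplies every region of a library by the same value, and with 2 libraries against 2 an exact two-sided permutation test of such a value cannot go below p = 0.333. The labels do not relate that contig to the E. coli DNA named in the protocol.

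Summit positions differed both between replicates and between cell states, and the states were apart about as often as in all shared regions. The summits taken were those of the widest peak in each library. Mitotic and asynchronous summits did not overlap in 56 of 213 wide regions (26.3%), against 28.9% of all shared regions. The state means, each a mean of 2 summits, lay a median of 49 bp apart. The 2 asynchronous summits were a median of 69 bp apart and the 2 mitotic summits 67 bp, and summits of different states were 86 bp apart on average in the median region. Over all shared regions the last 3 values were 56, 58 and 78.5 bp. Distances between means, between 2 summits and averaged over pairs of libraries are unlike measures and cannot be compared directly. The distance between state means was larger than both distances between replicates in 35 wide regions (16.4%) and in 16.2% of all shared regions.

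Of the regions without overlap, the largest shift relative to the replicates was on chromosome 7 from 93374803 to 93376369. Summits there were at 93375778 and 93375886 (asynchronous) against 93375137 and 93375135 (mitotic), a distance of 696 bp between state means. The replicates were 108 and 2 bp apart. Summits in this region were low, with 23 and 32 fragments against 30 and 34. The next were chromosome 18 from 79497770 to 79498894, at 124 bp, chromosome 11 from 101641407 to 101642709, at 512 bp, and chromosome 12 from 50314752 to 50316791, at 1448 bp. The fifth was chromosome 9 from 125037968, at 118 bp. Those on chromosome 18 and chromosome 9 were tall, with 282 and 280 fragments in asynchronous replicate 3, while on chromosome 12 no summit exceeded 23 fragments.

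Summits were placed most sharply in tall wide regions. Over all 213, the outermost of the 4 summits were a median of 156 bp apart, against 145 bp in the other shared regions, although the wide regions were longer. As a share of the stretch covered by any of the 4 peaks this was 11.2% and 21.0%. Neither comparison was matched for height. Between 1 and 2 times the shared median, the median distance was 462 bp in wide and 107 bp in other shared regions. Between 2 and 4 times it was 124.5 and 66 bp, and from 4 to 8 times 107 and 44 bp. From 8 times up it was 8 and 14 bp. All 4 summits lay within 50 bp in 51 wide regions (23.9%), against 20.3% of the other shared regions. They were over 500 bp apart in 58 wide regions, which were not counted in the other shared regions. Within 50 bp were 23 of the 43 wide regions at least 4 times the shared median (53.5%), and 28 of the other 170 (16.5%). In the other shared regions at least 4 times the shared median it was 56.8%. Scaled height and summit distance had a Spearman correlation of -0.512 across the 213 regions and -0.386 across all shared regions.

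In 7 wide regions (3.29%) the 4 libraries had their summit on the same base, as in 0.785% of the other shared regions. These 7 were named for that property after values were seen. The shares are not matched for height. Regions at least 4 times the shared median made up 20.2% of the wide and 1.72% of the other shared regions. On chromosome 1 from 143043924 all 4 summits were at 143044365, and on chromosome 2 from 241853904 all were at 241854788. Chromosome 17 from 1605069 to 1606271 had all of them at 1605408, with 245 and 178 against 126 and 222 fragments. The others were on chromosome 1 from 150404945, chromosome 8 from 128345746, chromosome 9 from 100688089 and chromosome 11 from 65500033. The region on chromosome 11 was much lower than the rest, with 49 and 39 against 45 and 69 fragments.

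In 1 of the tallest regions both states used the same pair of summits. On chromosome 1 from 144219681 the summit was at 144220409 in asynchronous replicate 3 and mitotic replicate 4 and at 144220355 in the other 2 libraries, 54 bp apart. In the widest spread, on chromosome 13 from 112692581, the summits were 2958 bp apart, and on chromosome 22 from 51154284 they were 2371 bp apart. Summits fell in the central 50% of the peak in 66.2% and 64.3% of wide regions for asynchronous against 66.2% and 65.7% for mitotic cells. In the other shared regions it was 68.2% and 65.0% for asynchronous against 65.3% and 71.9% for mitotic cells.

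**Figure D4:**
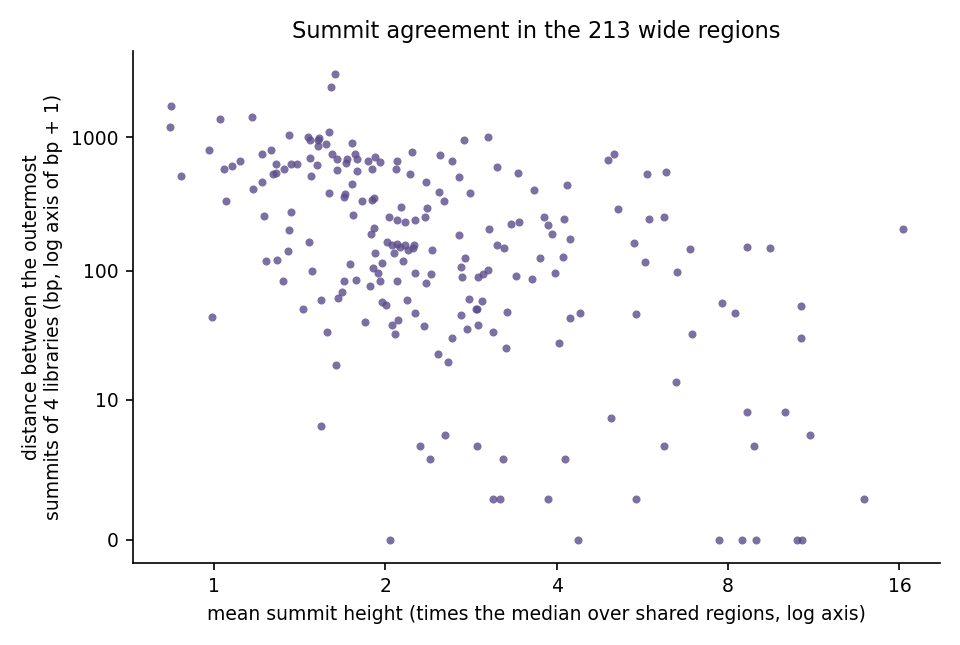
Distance between the outermost summits of the 4 libraries (bp, log axis of bp + 1) against mean summit height (times the median over shared regions, log axis), 1 point for each of the 213 wide regions. Of the 43 regions at 4 times the shared median or more, 23 have all summits within 50 bp, and 7 regions of the set lie at 0 bp.

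The wide regions were spread over all 22 autosomes and were mostly far from one another. Chromosome 1 had 34 of them, 16.0% of the set against 11.5% of shared regions. Chromosome 11 had 19, chromosome 12 had 16, chromosome 17 had 15 and chromosome 9 had 14. Relative to shared regions they were most frequent on chromosome 14, with 11 wide regions or 1.90 per 100 shared regions, and least on chromosome 16, with 2 or 0.251 per 100. Per length they were densest on chromosome 19 (1.94 per 10 Mb) and chromosome 17 (1.78), and the fewest per 10 Mb were on chromosome 16 (0.208). These are counts of few regions and were not tested.

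In the set, 10 wide regions lay within 100 kb of another wide region, in 5 pairs. The closest pair was on chromosome 11, where the tallest region and the one from 3919834 to 3922115 were 12651 bp apart. The former was higher in both mitotic libraries, and the latter, with 167 and 145 against 116 and 184 fragments, was lower in both. The next pair, on chromosome 19 from 57269683 and from 57289089, was 17430 bp apart, with 139 and 97 against 94 and 190, and 38 and 32 against 40 and 40 fragments. On chromosome 17 the regions from 1537688 and from 1605069 were 66060 bp apart. Of these 2, the taller was lower in both mitotic libraries and the other was higher in both, with 34 and 29 against 41 and 55 fragments. Neighbours therefore did not always lean the same way, though none of these differences passed the test.

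The lean towards lower mitotic heights was seen on most chromosomes with many wide regions. On chromosome 1 the scaled height averaged lower in 27 of 34 wide regions, with a median difference of -0.20 log2 units, and on chromosome 17 in 11 of 15. On chromosome 10 it was lower in 8 of 9. On chromosome 14 it was lower in 9 of 11, but with a median difference of only -0.05. The count was 10 of 16 on chromosome 12, 10 of 14 on chromosome 9, 7 of 12 on chromosome 19 and 7 of 11 on chromosome 5. Chromosome 11 stood apart from these in its count, with 9 of 19 lower. The wide regions higher there included the tallest one and the one from 3289250 to 3290696. The latter had 174 and 177 fragments (asynchronous) against 184 and 281 (mitotic), and was higher in both mitotic libraries after scaling. Differences between chromosomes were not tested. The counts per chromosome were not compared with all shared regions of the same chromosome.

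**Figure D5:**
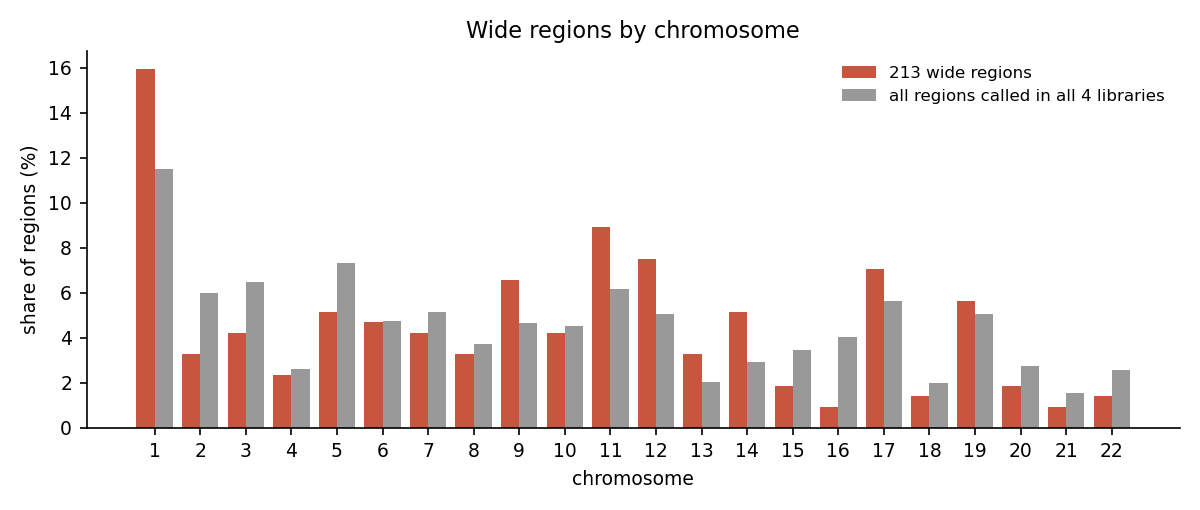
Share of the 213 wide regions (red) and of all 19822 regions called in all 4 libraries (grey) on each autosome, in percent. Chromosome 1 holds 16.0% of wide and 11.5% of shared regions, and chromosome 16 holds 0.939% and 4.02%.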

How the data were processed

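SAF-A CUT&Tag was run on 2 asynchronous and 2 mitotic RPE1 libraries, grouped by their titles. Per the labels' protocols, 100000 cells were used per assay, 1 pg of E. coli DNA was added, and paired reads of 150 bases were sequenced. The tools named by the submitters' processing notes are MACS2, Bowtie2, fastp and bedtools, and the build is hs1. No version or parameter is named there. The authors deposited 1 peak list per library. In them the authors give a fold (summit pileup as a ratio to the local background), a -log10 p-value and a -log10 q-value for each peak. The deposited score was not used. The deposited lists hold 101132, 76467, 78908 and 114846 peaks.

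Summit pileups were recovered by solving fold = (pileup + 1) / (background + 1) with the Poisson tail p. Between 99.992% and 99.997% of the pileups of a list came out whole within 0.05 fragments, and pileups were rounded. Library totals were not used here, so depth is known only through the genome background. Log2 pileups of the 19822 shared regions, divided by each library's median and with no pseudocount, were fitted with limma 3.58.1 (trended prior, R 4.3.3), a threshold of 0.05 after Benjamini-Hochberg adjustment, and no block. With 4 libraries the fit has 2 residual degrees of freedom, so SE and p rest mostly on the spread pooled over regions. Recovery and fit were run on simulated data. For the fit, counts were drawn with Poisson error only and no further spread between replicates. The simulation therefore cannot show whether the p-values hold for the real libraries.

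The members and the lists were chosen with earlier results of these data known. Named regions were the 8 tallest by mean rank, the 8 with the largest smallest width, the 4 with the smallest p if none passed, 5 by summit shift over the largest replicate distance (at least 1 bp), 3 by width ratio in each direction, and 3 on each side of the limit. Alternatives were other widths, a -log10 q of at least 5, a pairwise overlap of 50%, summed widths, other scalings and summits, a pseudocount of 1, no trend, a replicate block and each library left out.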

Additional observations from a re-analysis of the deposited data

How the results depend on the processing

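The number of wide regions was 691 with a limit of 800 bp and 46 with 1.25 kb, and 228 to 348 when the rule was applied to 3 libraries; the largest number, 348, was without asynchronous replicate 4. It was 212 with a -log10 q of at least 5, 205 with a pairwise overlap of 50% and 306 with summed widths. In the 11 alternatives run for the height test, 0 wide regions passed limma, with smallest adjusted p-values from 0.0794 to 0.630 (0.102 as reported). Without the trended prior, 2 wide regions had an unadjusted p under 0.05, as against the 27 reported. Spike-in scaling, on which all 213 passed, is not among them. The median height difference was negative in every alternative run. It was -0.15 with genome background scaling, -0.15 in regions of at least 1.25 kb and -1.33 with spike-in scaling, and -0.12 to -0.11 with each library left out. The replicate numbers are not said to pair the libraries, and differences between replicates 3 and 4 correlated at -0.05 between the states. With the replicate block the median difference was -0.13, 0 wide regions passed and the smallest adjusted p was 0.173. The share of regions with summits that did not overlap was 51.2% to 59.6% with each library left out, where 3 summits overlap less often by construction, and it was 57.9% to 62.1% over all shared regions with the same libraries left out. The median summit displacement was 48 to 89.2 bp. The 4 regions named with a p kept their direction in the 10 alternatives run for each. With a library left out this was fixed in advance, because both mitotic values lay below both asynchronous values. The replicate block and the fit without trend give the same difference by construction. In the alternatives with all 4 libraries, limma adjusted p ran from 0.0794 (-log10 q of at least 5) to 0.677 (no trend). With summits as low as 17 fragments in some libraries, counting error limits what could be detected in the lowest wide regions.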
